A study of Mus musculus with 12 samples.

Results

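Malat1, Neat1, Gas5, Snhg1, Snhg3, Snhg8, Snhg12 and Meg3 are long noncoding RNAs, and 5 of them (Gas5 and the Snhg genes) carry small nucleolar RNAs (snoRNAs) in their introns. They were taken by symbol from the count tables of mouse blood stem and progenitor cells, where they are 8 of 24538 genes. Their levels in each library, in CPM (reads of a gene per 1e6 gene reads, after the library size was multiplied by its TMM factor, which corrects for composition), chose them, so their levels and differences are given as a description and without p-values. Where a member is said to pass a threshold, that is likewise a description and supports nothing. Mice of 3 genotypes gave the cells, all aged 10 weeks and of a mixed 129/C57/B6 background: wild type (WT), Tet2 knockout (KO), and a Tet2 mutant (Mut). Tet2 is an enzyme that oxidises methylated cytosine, and the series asks which of its functions do not need catalysis. LSK cells, the lineage-negative, Sca-1-positive and Kit-positive fraction that holds the blood stem cells, and cells labelled MPP (multipotent progenitor; Lin in the titles) were sorted from the pooled marrow of 2 mice per genotype. Each of the 6 groups has 2 technical replicate libraries, 12 in all. Errors and adjusted p-values below therefore measure the spread between libraries of a single pool and not between mice. The labels give neither the residues altered in Mut, nor the deleted part of Tet2 in KO, nor the gates of the MPP sort, nor whether RNA with a poly(A) tail was selected.

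Long noncoding RNAs act as RNA and are not translated into a known protein. Malat1 and Neat1 are neighbouring genes whose RNAs stay in the nucleus: Malat1 RNA gathers in nuclear speckles, where splicing factors are stored, and Neat1 RNA is the scaffold around which paraspeckles form. A snoRNA host gene is transcribed and spliced, its introns release snoRNAs that guide chemical modification of ribosomal and other RNAs, and the spliced host RNA is often removed by nonsense-mediated decay. Several hosts start with a run of pyrimidines, the 5′ terminal oligopyrimidine (TOP) motif, which is also found at the start of messenger RNAs for ribosomal proteins and translation factors. Meg3 is transcribed from the maternal copy of the imprinted Dlk1-Dio3 region and is known for expression in blood stem cells.

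In GENCODE release M21 (GRCm38), Malat1 lies at chr19:5795690-5802672 and Neat1 at chr19:5824708-5845478, both on the minus strand, and each is covered by a single block of exons, of 6983 and 20771 bases. Snhg1 lies on the same chromosome at chr19:8723475-8726443 on the plus strand. Gas5 is at chr1:161034422-161038539 (plus), Snhg8 at chr3:123507552-123508404 (minus) and Meg3 at chr12:109541001-109571726 (plus). Snhg12 at chr4:132308623-132311024 (plus) and Snhg3 at chr4:132348014-132353686 (minus) are near each other on chromosome 4. The strand used in counting is not given in the sources used here, so reads of Gas5 cannot be told apart from those of its antisense neighbour Zbtb37 where both are annotated. Snhg3 shares its strand and part of its span with the protein-coding gene Rcc1, and counting could split their reads.

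The start of a host RNA is what marks it as a TOP transcript, so the 80 bases around the RefSeq start (30 before and 50 after, GRCm38.p6) are shown for the 5 hosts and for Malat1. Capitals mark a run of at least 5 pyrimidines (C or T) that begins with C within 5 bases of the start. Only the transcribed strand was searched.
Gas5, second RefSeq start (chr1:161035136-161035215, plus strand): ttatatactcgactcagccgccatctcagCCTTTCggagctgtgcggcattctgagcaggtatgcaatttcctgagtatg
Snhg3 (chr4:132353637-132353716, minus strand): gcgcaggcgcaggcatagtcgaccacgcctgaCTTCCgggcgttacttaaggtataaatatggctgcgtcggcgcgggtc
Snhg8 (chr3:123508287-123508366, minus strand): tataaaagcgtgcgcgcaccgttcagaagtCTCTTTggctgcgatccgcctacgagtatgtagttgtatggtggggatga
Snhg12 (chr4:132308648-132308727, plus strand): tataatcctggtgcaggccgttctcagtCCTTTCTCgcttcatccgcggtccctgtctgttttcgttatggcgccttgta
Snhg1 (chr19:8723457-8723536, plus strand): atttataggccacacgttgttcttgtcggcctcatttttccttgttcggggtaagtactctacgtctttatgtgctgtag
Malat1 (chr19:5802623-5802702, minus strand): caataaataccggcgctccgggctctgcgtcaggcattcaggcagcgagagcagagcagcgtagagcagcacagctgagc
Such a run was found in Gas5 (at the second of its 2 RefSeq starts), Snhg3, Snhg8 and Snhg12, and no run of this kind was found in these windows of Snhg1 and Malat1. By gene, 4 of the 5 hosts and 5 of the 7 members with a window (Meg3 is the fifth, at its first start) hold one. Of all 32851 RefSeq start windows, 6027 (18.3%) do, and of 12 other snoRNA hosts with a window 4 (33.3%) do. A match is a string of letters and not a measured start. The runs do not sort the hosts by direction of change: Gas5, which was higher in KO and Mut, and Snhg8, which was lower there in LSK, both hold one.

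GENCODE places 9 snoRNA positions inside Gas5, 8 inside Snhg1, 4 inside Snhg12, 2 inside Snhg3 and 1 inside Snhg8. Of the C/D-type snoRNAs among them, the 3 with a row of their own in the count tables stand for their hosts below. Their sequences are from GENCODE M21 transcripts, and capitals mark box C (TGATGA, searched exactly) and box D (the last CTGA), the short elements that C/D-type snoRNAs carry near their ends.
Snord47 in Gas5 (chr1:161038082-161038158, plus strand): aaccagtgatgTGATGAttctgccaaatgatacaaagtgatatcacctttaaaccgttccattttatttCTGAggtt
Snord22 in Snhg1 (chr19:8725866-8725991, plus strand): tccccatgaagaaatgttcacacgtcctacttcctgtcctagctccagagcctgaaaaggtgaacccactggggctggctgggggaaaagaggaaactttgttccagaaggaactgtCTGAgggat
Snord99 in Snhg12 (chr4:132310691-132310764, plus strand): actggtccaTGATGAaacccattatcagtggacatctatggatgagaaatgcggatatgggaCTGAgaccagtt
Both boxes were found in Snord47 and Snord99, and in Snord22 the exact box C letters were not found. Of 1482 snoRNA transcripts of all kinds in GENCODE, 352 (23.8%) hold both strings.

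Between 9181027 and 23532847 gene counts were recorded in each library, and a gene with no count there may still stand at up to 0.127 to 0.327 CPM (3 counts), a floor for counting error only. Both LSK WT libraries stand apart from the rest: their log2 CPM correlate with r = 0.780 across genes, which are not independent replicates, against 0.914 to 0.941 in the other groups, and they detect 12470 and 12614 genes against 13333 to 14264. Spike-in RNAs took 0.0822% to 0.229% of counts in LSK and 3.16% to 5.15% in MPP. In LSK they had 14146 to 27534 counts per library. The 2 technical libraries of LSK Mut differed in this share, at 0.139% and 0.0822%, and scaling by spike-ins carries such differences. Tet2 itself stood at 87.0 and 62.5 CPM in LSK WT, 29.2 and 31.7 in LSK KO and 43.5 and 44.4 in LSK Mut, and at 29.4 to 40.2 in all 6 MPP libraries. Since the deleted part is not given, the Tet2 row does not check the KO label. The summed level of 8 LSK markers was 2518 to 3196 CPM in LSK and 538 to 723 in MPP. That of 5 granulocyte-monocyte progenitor markers was 2029 to 6007 in LSK and 46188 to 60898 in MPP. Within LSK this second sum was 2029 to 2403 in WT, 4705 to 4988 in KO and 5778 to 6007 in Mut. In MPP it was 57768 to 60898, 46188 to 46843 and 46419 to 48918. The sum of 5 erythroid markers was 220 to 249, 180 to 191 and 117 to 132 in the same LSK groups. Its MPP values were 1642 to 1892 in WT, 2638 to 2697 in KO and 2050 to 2195 in Mut. The part of these shifts in the member differences was not tested. Ly6a, which encodes Sca-1, was at 10.4 to 20.6 CPM and the progenitor receptor Flt3 at 79.2 to 133 in the libraries labelled MPP, against 58.2 to 163 and 719 to 1142 in LSK. The label MPP is kept as the name of that group.

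Malat1 was the most abundant of the 8 in every library, and in LSK its level was lower in KO than in WT and lower again in Mut. Its level was 11785 and 12607 CPM in the LSK WT libraries, 9889 and 9762 in KO and 6098 and 6015 in Mut. In MPP it was 1715 and 1958 in WT, 2782 and 2772 in KO and 2414 and 2240 in Mut. No group overlapped its neighbour in this order of levels: LSK WT, LSK KO, LSK Mut, MPP KO, MPP Mut, MPP WT. Malat1 took 1.22% and 1.31% of all gene counts in LSK WT, where it was the gene with rank 3, and 0.160% and 0.181% in MPP WT, with ranks 30 and 27. In these bulk samples, fewer cells that hold an RNA and less of it per cell cannot be told apart.

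On the log2 scale Malat1 differed by -0.33 ± 0.05 (SE) between LSK KO and WT and by -1.03 ± 0.05 between LSK Mut and WT. KO and Mut share the WT libraries, so these differences are not independent. LSK KO was 0.70 ± 0.05 above LSK Mut, a comparison that uses no WT library. The Mut against WT difference kept its place past the threshold (adjusted p below 0.05 in edgeR's quasi-likelihood test over all genes) with each of the 6 LSK libraries left out, at -1.08 to -0.97. The KO against Mut difference was past it in 3 of 6 such fits (0.69 to 0.71) and not without LSK KO replicate 1, LSK KO replicate 2 or LSK Mut replicate 2. In MPP the direction was the opposite, with 0.59 ± 0.07 for KO against WT and 0.34 ± 0.07 for Mut against WT. The MPP KO value ran from 0.51 to 0.70 with a library left out. It was past the threshold in 4 of these 6 fits and not without MPP KO replicate 1 or MPP KO replicate 2. The KO effect in LSK minus that in MPP was -0.91 ± 0.09, and the Mut effect in LSK minus that in MPP was -1.36 ± 0.09.

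Values of other RNAs moved with Malat1 in LSK. Rn45s, the ribosomal RNA precursor row, took 3.65% and 3.70% of gene counts in LSK WT, 2.47% and 2.51% in KO and 0.981% and 1.09% in Mut, against 0.873% to 1.10% in MPP. Lars2, a mitochondrial leucyl-tRNA synthetase gene, took 1.76% and 1.89%, 1.27% and 1.29%, and 0.476% and 0.442% in the same LSK groups. In MPP Lars2 took 0.216% and 0.234% in WT, 0.178% and 0.172% in KO and 0.346% and 0.340% in Mut. There it fell in KO by 0.42 ± 0.05 (adjusted p = 0.0164, edgeR), where Malat1 was higher, and rose in Mut by 0.58 ± 0.05 (adjusted p = 0.0034, edgeR). The log2 differences of Rn45s and Lars2 between LSK Mut and WT were -1.90 and -2.07. Malat1 counts per Lars2 count were 0.693 and 0.692 in LSK WT, 0.820 and 0.810 in KO and 1.37 and 1.46 in Mut, so the step was less steep for Malat1 than for Lars2. The part of these RNAs in the Malat1 differences was not tested. Under spike-in scaling the median gene of LSK Mut lay 1.10 above LSK WT on the log2 scale. Malat1 then differed by 0.056, which is -1.05 relative to that median. LSK KO against Mut was 0.11 ± 0.39 for Malat1 under that scaling, no longer past the threshold, and MPP Mut against WT turned to -0.25 ± 0.13. MPP KO against WT was 0.65 ± 0.13 and no longer past the threshold.

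**Figure D1:**
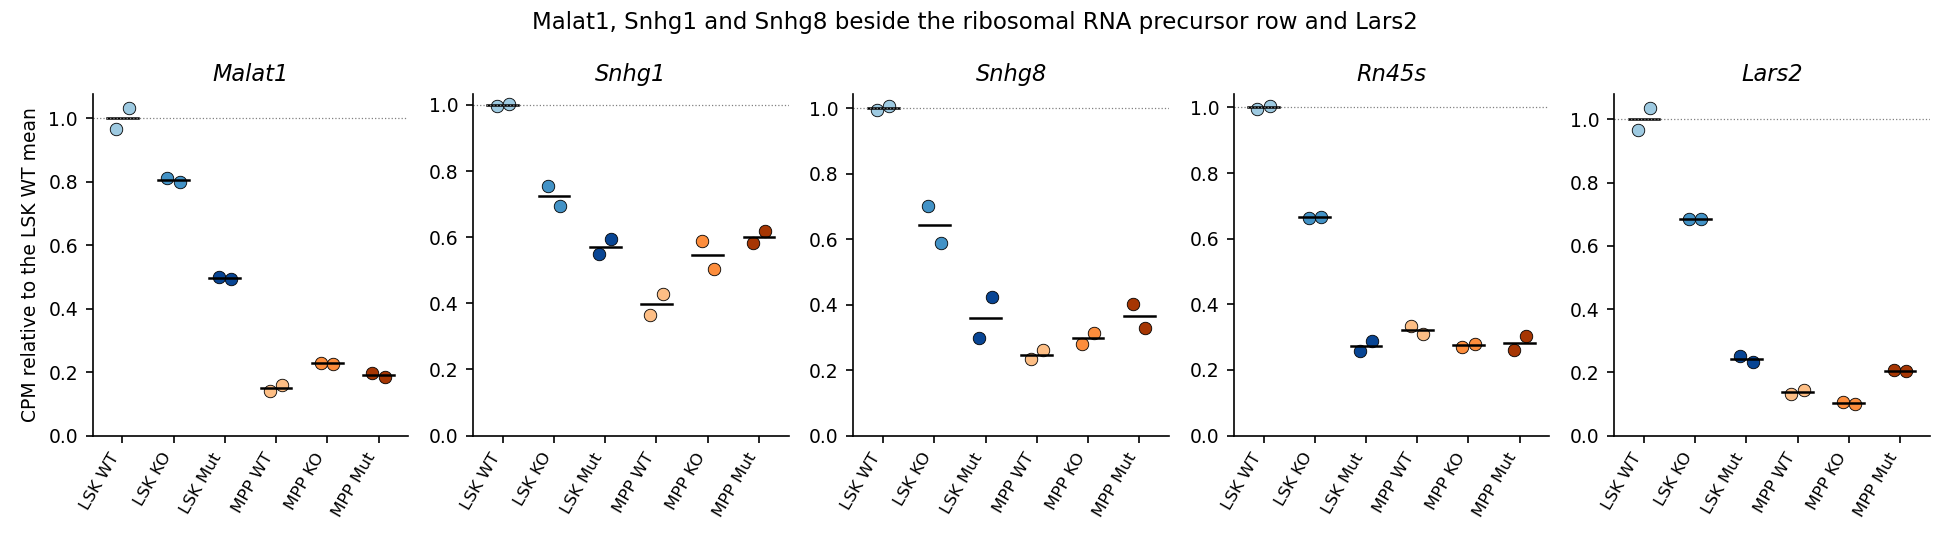
CPM relative to the mean of the LSK WT libraries (y axis, linear) for Malat1, Snhg1, Snhg8, the ribosomal RNA precursor row Rn45s and Lars2, in the 6 groups (x axis). Dots are libraries and bars group means. In LSK all 5 are lower in KO than in WT and lower again in Mut, while in MPP Rn45s stays between 0.873% and 1.10% of counts and Malat1, Snhg1 and Snhg8 are lowest in WT.

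Neat1 was highest in MPP KO. It was at 530 and 432 CPM there, at 250 and 299 in MPP WT and at 182 and 214 in MPP Mut. In LSK it was at 428 and 269 in WT, 229 and 206 in KO and 271 and 198 in Mut. Only MPP KO did not overlap the group next to it in order of level, which was LSK WT. Its lower library (432) was nearly level with LSK WT replicate 1 (428). The other 5 groups overlapped their neighbours. MPP KO was 1.28 ± 0.15 above MPP Mut (log2), 1.13 to 1.42 with a library left out. This difference lost its place past the threshold without MPP KO replicate 1, MPP Mut replicate 1 or MPP Mut replicate 2. MPP KO against WT gave 0.81 ± 0.15 and MPP Mut against WT -0.47 ± 0.14. In LSK the differences from WT were -0.70 ± 0.25 for KO and -0.59 ± 0.25 for Mut. They rest on LSK WT replicate 1: without it KO against WT was -0.33, and without replicate 2 it was -0.99.

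Per kilobase of exon, Malat1 stood at a mean level of 1747 CPM and Neat1 at 16.8 CPM in LSK WT, and at 398 and 23.2 CPM in MPP KO, where they were closest. Malat1 counts per Neat1 count, a ratio within a library that needs no scaling, were 22.5 to 47.3 in LSK and 5.25 to 13.3 in MPP. Within MPP the ratio was 6.87 and 6.55 in WT, 5.25 and 6.42 in KO and 13.3 and 10.5 in Mut. The neighbouring genes therefore did not keep a fixed ratio across populations or between MPP Mut and the other MPP groups.

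With TMM scaling Gas5, a host named for its level in growth-arrested cells, was higher in KO than in WT and higher again in Mut in both populations. In LSK it was at 588 and 468 CPM in WT, 678 and 590 in KO and 936 and 987 in Mut. In MPP it was at 213 and 237 in WT, 435 and 384 in KO and 606 and 681 in Mut. The groups of a population did not overlap, although the closest pair of libraries in LSK (588 in WT and 590 in KO) was nearly level. MPP Mut and LSK KO overlapped. On this scale the order in both populations was shared by 14 of 12302 genes (0.114%).

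Gas5 differed from WT by 0.24 ± 0.13 in LSK KO, 0.84 ± 0.13 in LSK Mut, 0.86 ± 0.11 in MPP KO and 1.51 ± 0.11 in MPP Mut (log2). MPP Mut against WT stayed past the threshold in all 6 fits with a library left out (1.43 to 1.61). LSK Mut against WT did so in 2 of 6 (0.70 to 1.01) and not without either LSK KO or either LSK Mut library. MPP KO against WT did so in 3 of 6 (0.77 to 0.95) and not without MPP WT replicate 1, MPP KO replicate 1 or MPP KO replicate 2. LSK KO against WT was 0.10 without LSK WT replicate 2 and 0.41 without LSK WT replicate 1. The difference of the Mut effects between populations did not pass the threshold. Under spike-in scaling MPP KO and Mut lay 0.919 ± 0.15 and 0.923 ± 0.15 above WT, and MPP KO against Mut was -0.0037 ± 0.15. The step from KO to Mut in MPP thus depends on the scaling, which moved the median gene there by 0.65. LSK KO against Mut was -1.20 ± 0.42 under that scaling.

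**Figure D2:**
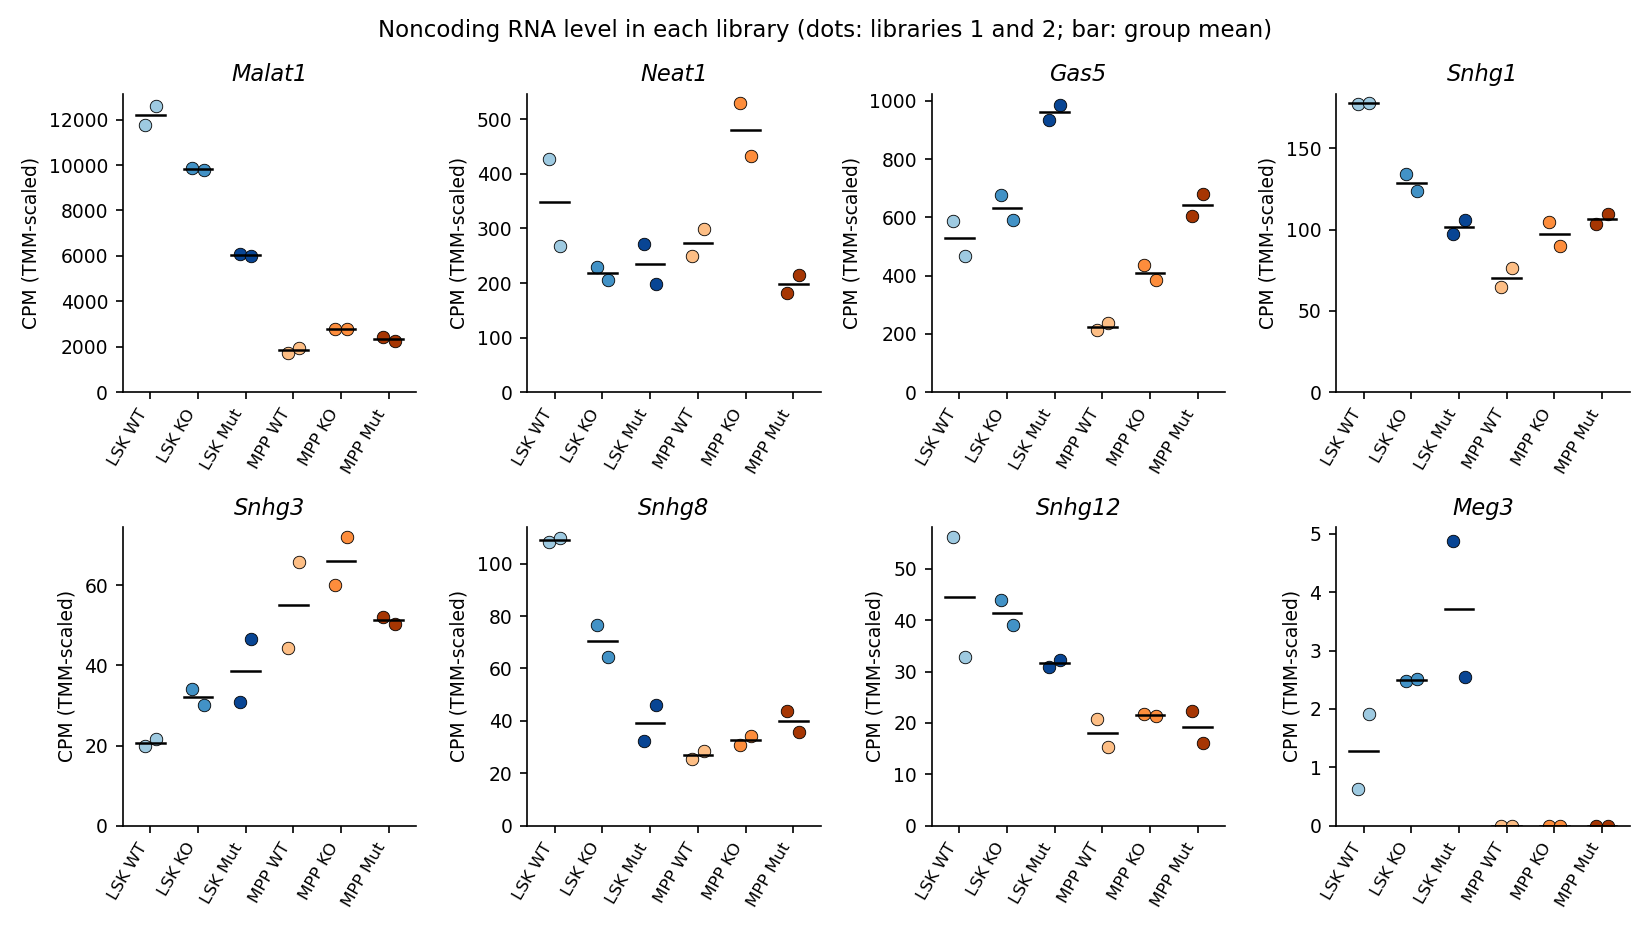
CPM on the TMM-scaled library size (y axis, linear, from 0) of the 8 noncoding RNAs in the 6 groups (x axis). Dots are the 2 technical libraries of a group and bars the group mean; Malat1 steps down in LSK from 12607 to 6015, Gas5 steps up from WT to KO to Mut in both populations, and Meg3 is at 0 in all 6 MPP libraries.

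Snhg1, the host of several C/D-type snoRNAs, went the other way from Gas5 in LSK. It was at 177 and 178 CPM in LSK WT, 134 and 123 in KO and 97.2 and 106 in Mut. In MPP it was at 64.9 and 76.1 in WT, 105 and 89.7 in KO and 103 and 110 in Mut. The 3 LSK groups did not overlap, MPP WT lay below both other MPP groups, and MPP KO, LSK Mut and MPP Mut overlapped in turn. The log2 differences from WT were -0.48 ± 0.16 for LSK KO, -0.83 ± 0.17 for LSK Mut, 0.46 ± 0.18 for MPP KO and 0.59 ± 0.18 for MPP Mut. None of them passed the threshold. The Mut effect in LSK minus that in MPP, -1.41 ± 0.24, did, in 7 of 12 fits with a library left out (-1.53 to -1.29) and not without either LSK Mut library, either MPP Mut library or MPP WT replicate 1.

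Snhg8, which hosts a single snoRNA, had the same opposite courses, steeper than those of Snhg1 in LSK and not in MPP. It was at 108 and 110 CPM in LSK WT, 76.4 and 64.3 in KO and 32.4 and 46.2 in Mut, and at 25.4 and 28.5, 30.7 and 34.3, and 43.9 and 35.8 in the same MPP groups. With TMM scaling, levels stepped down from WT to KO to Mut in LSK and up in MPP without overlap within a population. On this scale the pattern was that of 17 of 12302 genes (0.138%). The MPP steps were thin, with 28.5 in WT beside 30.7 in KO and 34.3 in KO beside 35.8 in Mut. LSK Mut and MPP Mut overlapped. Snhg8 differed from WT by -0.66 ± 0.27 in LSK KO, -1.50 ± 0.28 in LSK Mut, 0.27 ± 0.27 in MPP KO, and 0.56 ± 0.27 in Mut of the same population. The Mut effect in LSK minus that in MPP was -2.04 ± 0.37. It was past the threshold in 7 of 12 fits with a library left out (-2.32 to -1.80) and not without LSK Mut replicate 1, either MPP WT or either MPP Mut library.

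Snhg3, host of the Snora73 snoRNAs, was the one RNA of the 8 whose mean level was lower in all LSK groups than in any MPP group. It was at 19.8 and 21.6 CPM in LSK WT, 34.0 and 30.1 in KO and 30.9 and 46.5 in Mut, and at 44.4 and 65.8, 60.1 and 71.9, and 52.2 and 50.4 in the same MPP groups. LSK Mut replicate 2 lay within the range of the MPP WT libraries. LSK WT lay below both other LSK groups, by 0.61 ± 0.40 for KO and 0.88 ± 0.40 for Mut (log2), and the 3 MPP groups overlapped in turn. Rcc1, which shares its strand and part of its span, differed in the same direction in LSK, by 0.35 ± 0.20 and 0.42 ± 0.20. Between LSK and MPP Rcc1 differed by -1.03 ± 0.16 in WT, -0.66 ± 0.16 in KO and -0.74 ± 0.16 in Mut (adjusted p = 0.00083, 0.0163 and 0.0137, edgeR). Whether reads shared with Rcc1 enter the Snhg3 values was not tested.

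Snhg12 had the smallest genotype differences of the hosts in LSK Mut. It was at 56.1 and 32.9 CPM in LSK WT, 43.8 and 39.0 in KO, 30.9 and 32.2 in Mut, and at 15.4 to 22.2 in the 6 MPP libraries. LSK WT and KO overlapped, as did all 3 MPP groups, while every LSK library lay above every MPP library. The largest genotype difference was -0.52 ± 0.37 in LSK Mut. LSK KO against WT turned from -0.12 to 0.31 without LSK WT replicate 1 and was -0.45 without LSK WT replicate 2.

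Meg3 was detected in LSK only. It had 6 and 24 counts in the LSK WT libraries, 45 and 35 in KO and 87 and 47 in Mut, which is 0.63 and 1.91, 2.48 to 2.51, and 4.87 and 2.54 CPM. All 6 MPP libraries had 0 counts, which allows up to 0.127 to 0.278 CPM in them. The LSK groups did not overlap, but the differences from WT, 0.94 ± 1.25 for KO and 1.51 ± 1.27 for Mut (log2), have errors close to their own size. Of 7 markers of mesenchymal stroma, Col1a1, Col3a1 and Dcn were at 0 in all 6 LSK libraries. The summed level of the 7 was 93.5 to 142 CPM in LSK and 20.5 to 80.0 in MPP, and nearly all of it was Pdgfrb, at 93.2 to 142 CPM in LSK and 20.5 to 75.1 in MPP. Cxcl12 and Lepr were at 0 in 5 of the 6 LSK libraries. Col1a2 had 19 and 0 counts in LSK WT, 1 and 115 in KO and 14 and 107 in Mut, and 0 to 44 in MPP. Rian and Mirg, which lie beside Meg3 in the same imprinted cluster, had 0 counts in all 12 libraries. Dlk1 had 27 to 66 counts in LSK and 0 to 15 in MPP.

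Read over the 8 members, the fit over all genes called few differences between genotypes. Shares of all genes tested that were called in either direction are given in brackets. In LSK KO against WT it called 0 of 8 (0.0456%), in LSK Mut against WT 2 of 8, Gas5 higher and Malat1 lower (1.28%), and in LSK KO against Mut 1 of 8, Malat1 (0.0607%). In MPP, where Meg3 was not tested, KO against WT called 2 of 7, Malat1 and Gas5 (0.363%), Mut against WT 1 of 7, Gas5 (0.224%), and KO against Mut 1 of 7, Neat1 (0.239%). The differences of effects between populations called 1 of 8 for KO, Malat1 (0.727%), and 3 of 8 for Mut, Malat1, Snhg1 and Snhg8 (2.53%). The members were chosen on these levels, so nothing is read from their counts against those shares. Their median log2 difference was -0.23 in LSK KO and -0.55 in LSK Mut against WT, and 0.46 and 0.34 in MPP, where the median of all genes tested was -0.01 to 0.01. Under spike-in scaling LSK KO against WT turned to 0.17 for Malat1, 0.019 for Snhg1 and 0.41 for Snhg12, and LSK Mut against WT to 0.47 for Neat1, 0.28 for Snhg1 and 0.62 for Snhg12. MPP Mut against WT turned to -0.02 for Snhg8 and -0.49 for Snhg12 and was 0.0014 for Snhg1. Without overlap between the groups, 3 members were higher and 4 lower in LSK KO than in WT (25% and 17.9% of all genes) and in LSK Mut than in WT (26.9% and 20.2%). In MPP 6 were higher and 0 lower in KO than in WT (20% each), and 4 higher and 1 lower in Mut than in WT (19.9% and 19.3%).

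**Figure D3:**
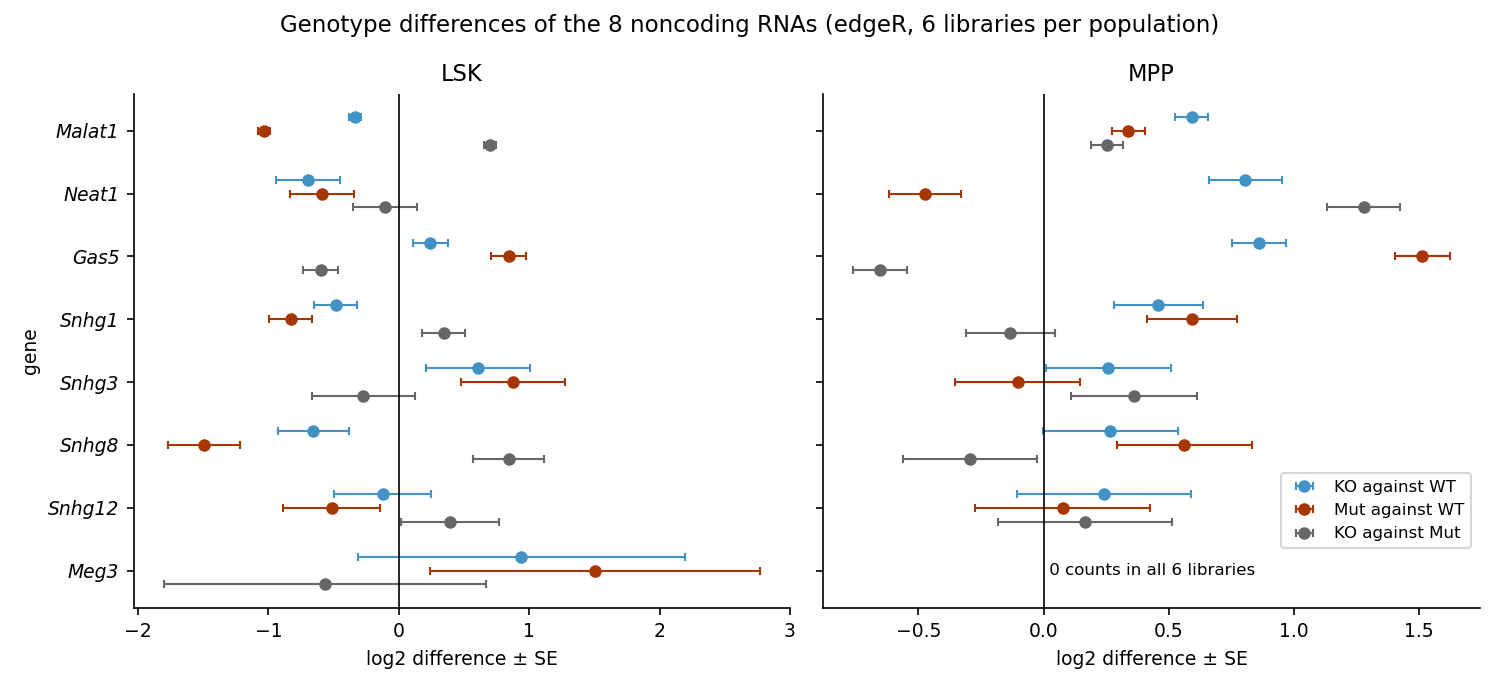
Log2 difference ± SE (x axis) of each noncoding RNA (y axis) between genotypes in LSK (left) and MPP (right), from edgeR fits to the 6 libraries of a population; the 2 x axes have different ranges. Malat1, Snhg1 and Snhg8 lie below 0 for KO and Mut against WT in LSK and above 0 in MPP with TMM scaling, and under spike-in scaling Malat1 turns in LSK KO, LSK Mut and MPP Mut, Snhg1 in LSK KO and LSK Mut and Snhg8 in MPP Mut; Gas5 lies above 0 in both.

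Between populations, Malat1 was 2.73 ± 0.07 higher in LSK than in MPP in WT, 1.82 ± 0.07 in KO and 1.38 ± 0.07 in Mut (log2). Gas5 was higher by 1.23, 0.63 and 0.58, Snhg1 by 1.34, 0.41 and -0.07, Snhg8 by 2.02, 1.12 and -0.02 and Snhg12 by 1.30, 0.95 and 0.72 in the same genotypes. Snhg3 differed by -1.41, -1.04 and -0.41 and Neat1 by 0.35, -1.14 and 0.25. With TMM scaling the gap between populations was thus widest in WT for all of these but Neat1, and in Mut it was close to 0 for Snhg1 and Snhg8. The fit called 6 of 8 in WT (24% of all genes), 5 of 8 in KO (15.2%) and 2 of 8 in Mut (8.76%), either direction counted. Several of these calls lay close to the threshold. With a library left out, Snhg3 in KO was past it in 2 of 12 fits and Snhg12 in WT in 7. Snhg8 in KO and Gas5 in Mut were past it in 8 of 12 each. For Snhg3 and Snhg12 the libraries whose loss ended the call include some outside the groups compared. The values stayed at -1.17 to -0.91 for Snhg3, 0.86 to 1.63 for Snhg12, 0.98 to 1.23 for Snhg8 and 0.50 to 0.66 for Gas5. Spike-in scaling, which moves the median of all genes by 4.17 in WT, 4.66 in KO and 5.88 in Mut, gives every member a higher level in LSK, so each direction here is relative to the other genes. The order of the genotypes depends on the scaling as well. With spike-ins Malat1 was 6.93 higher in LSK in WT, 6.44 in KO and 7.23 in Mut. Snhg8, at 6.21, 5.72 and 5.89, alone kept its widest gap in WT.

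The ratio of one host to another within a library does not depend on scaling. Gas5 counts per Snhg1 count were 3.32 and 2.63 in LSK WT, 5.05 and 4.78 in KO and 9.63 and 9.34 in Mut. In MPP they were 3.28 and 3.12, 4.16 and 4.29, and 5.87 and 6.21. WT thus had nearly the same ratio in both populations, and the ratio was higher without overlap in KO and again in Mut. Gas5 counts per 1000 Malat1 counts had the same order: 49.9 and 37.1 in LSK WT, 68.5 and 60.5 in KO and 154 and 164 in Mut, and 124 and 121, 157 and 139, and 251 and 304 in MPP. Snhg1 counts per 1000 Malat1 counts had another order, lowest in KO and highest in Mut, without overlap in either population. In LSK they were 12.6 and 13.6 in KO, 14.1 and 15.0 in WT and 15.9 and 17.6 in Mut. In MPP they were 32.3 and 37.6, 37.8 and 38.9, and 42.8 and 48.9.

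**Figure D4:**
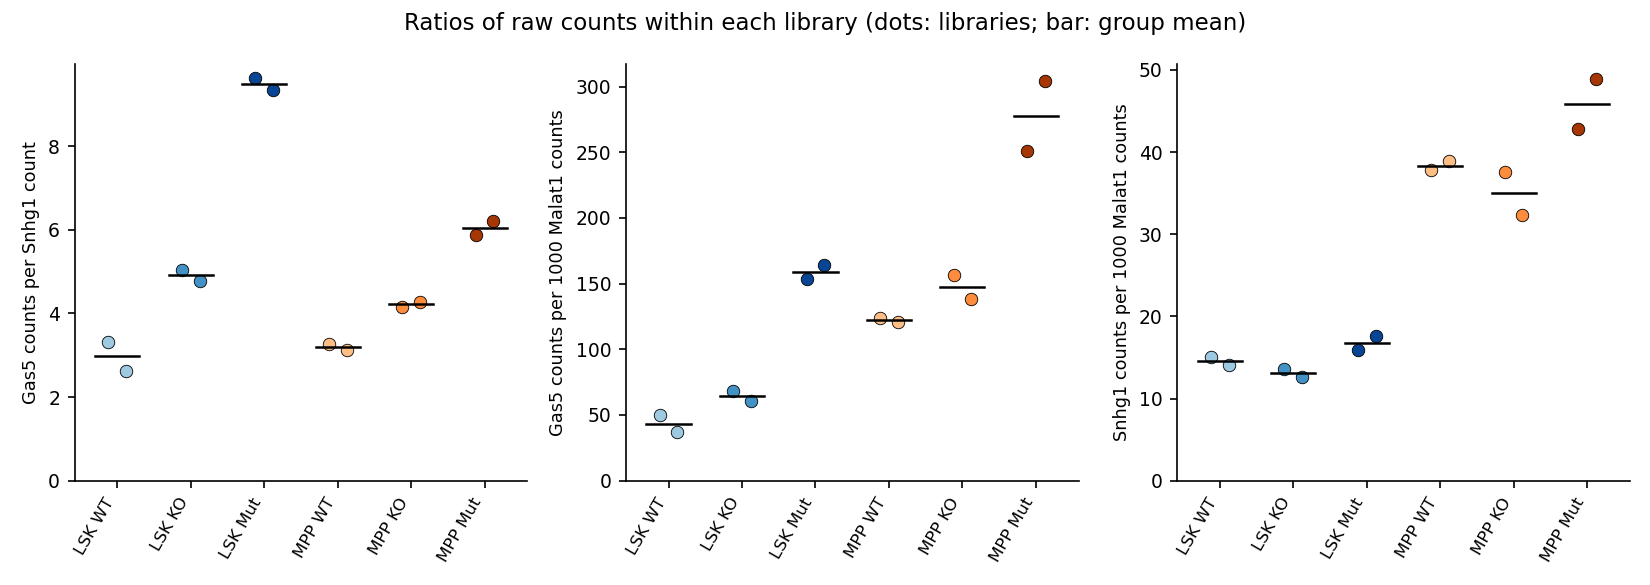
Ratios of raw counts within each library (y axes, linear, from 0): Gas5 per Snhg1, Gas5 per 1000 Malat1 and Snhg1 per 1000 Malat1 counts, in the 6 groups (x axis). Dots are libraries and bars group means; the first ratio runs from 2.63 in WT to 9.63 in Mut in LSK, while the third stays between 12.6 and 17.6 there.

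The snoRNA rows held few counts, and reads inside a host's annotated span can be split between the host and the snoRNA. Snord22, whose letters stand above, followed its host Snhg1 in LSK: it had 72 and 67 counts in WT, 49 and 47 in KO and 24 and 39 in Mut. In MPP it had 4 and 3, 13 and 11, and 27 and 42. On the CPM scale it stood in LSK at 7.58 and 5.33 in WT and 1.34 and 2.11 in Mut, and in MPP at 0.267 and 0.300 in WT and 1.22 and 2.76 in Mut, without overlap between genotypes of a population. Snord47 did not follow the order of its host Gas5 in LSK, where it was at 1.68 and 2.07 CPM in WT, 5.02 and 4.38 in KO and 1.68 and 2.54 in Mut. Snord99 of Snhg12 had 7 to 30 counts in LSK and 1 to 10 in MPP. Snora61, also of Snhg12, had 2 to 14 counts over the 12 libraries, and Snora24, the snoRNA of Snhg8, had 0 counts in all of them.

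Of the other snoRNA hosts 11 were tested in LSK and 12 in MPP, and the genotype comparisons called 1 of them: Zfas1, lower in LSK Mut than in WT by 1.19 ± 0.15 on the log2 scale (adjusted p = 0.026, edgeR). Of all genes tested, 1.28% were called in LSK Mut against WT (71 higher and 97 lower). Zfas1 was at 257 and 248 CPM in LSK WT, 149 and 147 in KO and 107 and 118 in Mut, and the call was lost without either LSK KO or either LSK Mut library. Under spike-in scaling the difference was -0.08. The median of the 11 was -0.61 in LSK Mut and -0.29 in LSK KO, against 0.01 and 0 for all genes. In MPP Zfas1 was at 63.6 to 94.3 CPM. Its Mut effect in LSK minus that in MPP was -1.48 ± 0.24 (adjusted p = 0.0124), lost without LSK Mut replicate 1, MPP WT replicate 1 or MPP Mut replicate 1, and 0.21 under spike-in scaling. Comparing LSK with MPP in WT, 6 of 12 hosts were higher and 0 lower, where 24% of all genes were called (1438 higher and 1923 lower). Among the 6, Snhg20 was higher by 2.29 ± 0.43 and Epb41l4aos by 1.51 ± 0.32 (adjusted p = 0.00301 and 0.00548). In KO 5 were higher (15.2% of all genes called), and in Mut 0 were called in either direction (8.76%). With a library left out 2 to 5 hosts were higher in WT, 1 to 5 in KO and 0 to 1 in Mut.

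**Figure D5:**
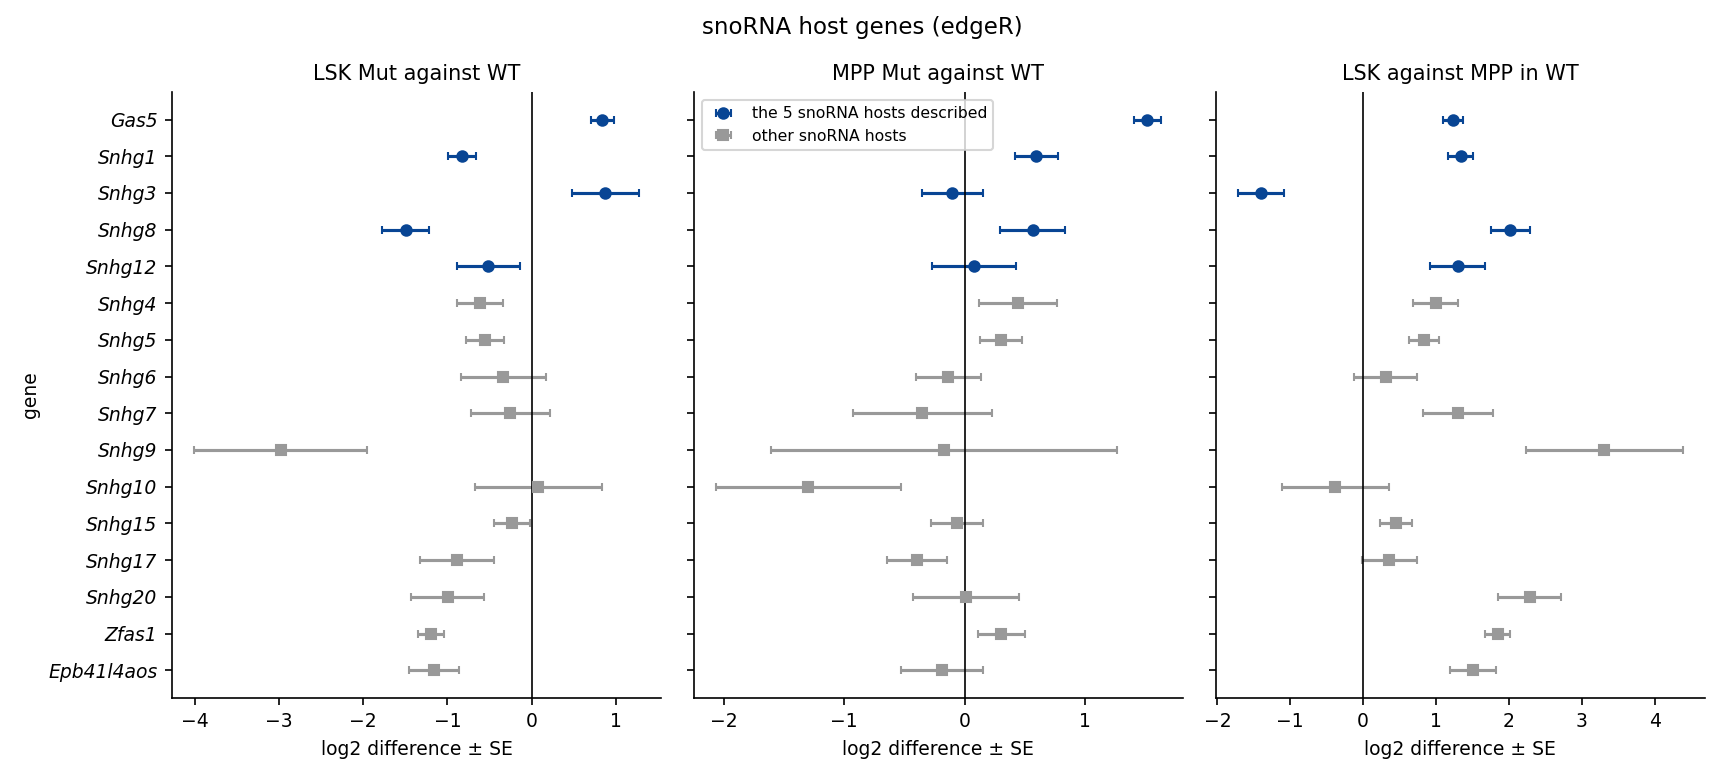
Log2 difference ± SE (x axes, different ranges) of the 5 snoRNA hosts described (blue circles) and 11 other hosts (grey squares) in LSK Mut against WT, MPP Mut against WT and LSK against MPP in WT, from edgeR. Gas5 and Snhg3 lie above 0 in LSK Mut against WT, where Zfas1 is at -1.19 and the other grey squares except that of Snhg10 lie below 0.

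The messenger RNAs of translation factors and other TOP genes outside the ribosome were tested for 17 genes. In LSK Mut against WT 0 rose and 4 fell: Eef1b2 and Nap1l1, a translation elongation factor subunit and a nucleosome assembly protein, by 0.78 ± 0.10 and 0.85 ± 0.14 on the log2 scale, and Rack1 and Npm1, a ribosome-bound scaffold and a nucleolar chaperone, by 0.53 ± 0.09 and 0.59 ± 0.10 (adjusted p = 0.0246, 0.0392, 0.0476 and 0.04998, edgeR). Each call was lost without either LSK KO or either LSK Mut library, and under spike-in scaling the 4 values were 0.23 to 0.57 against a median gene at 1.10. The median of the 17 was -0.23. LSK Mut against WT called 1.28% of all genes tested, 71 higher and 97 lower. Among the hosts, Gas5 lay above WT in LSK Mut and Snhg1 and Snhg8 lay below it. The other genotype comparisons called none of the 17. In LSK against MPP 8 were higher in WT (24% of all genes called in either direction), 8 in KO (15.2%) and 2 in Mut (8.76%), and 0 were lower.

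Few genes for proteins that meet these RNAs were called between genotypes. Of 14 paraspeckle proteins Sfpq, a paraspeckle core protein, was lower in LSK Mut than in WT by 0.91 ± 0.15 (adjusted p = 0.0392, edgeR). Of 12 nuclear speckle proteins Srrm2, a speckle scaffold, was lower by 0.68 ± 0.11 (adjusted p = 0.0444), and of 14 nonsense-mediated decay genes Smg6, the endonuclease of the pathway, was lower by 1.12 ± 0.19 (adjusted p = 0.0419). The share of all genes called in LSK Mut against WT was 1.28%. Each of the 3 calls was lost without either LSK KO or either LSK Mut library. Under spike-in scaling Sfpq and Srrm2 turned to 0.22 and 0.39, and Smg6 stood at -0.02. The median of the decay genes was -0.65 in LSK Mut and -0.31 in LSK KO against WT, that of the paraspeckle proteins -0.14 and -0.21 and that of the speckle proteins -0.26 and -0.27, against 0.01 and 0 for all genes. In all, 0 members of these lists were called in the other 5 genotype comparisons. The 16 snoRNA-binding and assembly proteins tested had 0 calls in all 6. In LSK against MPP in WT, 7 of 12 speckle proteins were higher and 1 lower, where 24% of all genes were called (1438 higher and 1923 lower), with Srsf5 and Son, a splicing factor and a speckle scaffold, at 1.02 ± 0.09 and 0.88 ± 0.09 (adjusted p = 2.12e-05 and 5.40e-05). Of the paraspeckle proteins 3 were higher and 1 lower, of the decay genes 3 higher and 0 lower, and of the snoRNA-binding proteins 2 higher and 3 lower.

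Among 15 other long noncoding RNAs, Kcnq1ot1, the antisense RNA of an imprinted cluster, had a course close to that of Malat1. It was at 351 and 352 CPM in LSK WT, 262 and 269 in KO and 140 and 97.1 in Mut, and at 39.3 to 84.5 in MPP. It was lower in LSK Mut than in WT by 1.59 ± 0.19 on the log2 scale (adjusted p = 0.0235), a call lost without either LSK KO or either LSK Mut library, and by 0.56 under spike-in scaling. Its Mut effect in LSK minus that in MPP was -2.50 ± 0.25 (adjusted p = 0.00096, edgeR), past the threshold in all 12 fits with a library left out. The KO effect in LSK minus that in MPP was -1.35 ± 0.25 (adjusted p = 0.0434), and was past it in 4 of 12. Under spike-in scaling the Mut and KO values were -0.90 and -0.92, and both calls were lost. Kcnq1ot1 was also higher in LSK than in MPP in WT by 3.09 ± 0.19 (adjusted p = 1.50e-06), as was Firre, a nuclear RNA of the X chromosome, by 2.95 ± 0.28 (adjusted p = 3.09e-05). No other gene of that list was called between genotypes, where LSK Mut against WT called 1.28% of all genes. Of 7 structured noncoding RNAs 2 could be tested and 0 were called. Of 16 genes of the Dlk1-Dio3 region and the imprinted growth network 8 could be tested, and Ndn alone was called, higher in LSK than in MPP in WT and KO: it had 24 and 411 counts in LSK WT, 246 to 369 in LSK KO and Mut, and 0 in 5 of the 6 MPP libraries.

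The genes most like each member over the 12 libraries were found by Pearson correlation of log2 CPM among 9441 genes with a mean of at least 10 CPM. The libraries share the differences between populations, so these values are descriptions. Malat1 was closest to Rps4x, Hnrnph1 and Clk1 (r = 0.980, 0.978 and 0.977), of which Rps4x encodes a ribosomal protein and Clk1 a kinase of splicing factors. Gas5 was closest to Rnmt, Tgtp2 and Sgms1 (0.937, 0.915 and 0.897), and Snhg1 to Fosb, Hnrnpdl and 2310035C23Rik (0.949, 0.947 and 0.942). Snhg8 was closest to Mir703, 2410006H16Rik and Mir682 (0.991, 0.989 and 0.986), Snhg3 to Atp5c1, Emc4 and Mad2l1 (0.963, 0.959 and 0.958) and Snhg12 to Pogz, Kif2a and Dntt (0.964, 0.960 and 0.955). Neat1 had no close partner, with Ppp1r37, Capn7 and Ppp5c at 0.793, 0.787 and 0.784. Meg3, at 0 in 6 libraries, was closest to Tmem176b, Klk8 and Stmn1 (0.984, 0.981 and 0.979).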

How the data were processed

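The authors deposited 1 table per population, with unscaled whole-number counts for each gene symbol in 12 mouse libraries. Per the submitters' processing notes, Trim Galore 0.4.1 was used for trimming and TopHat2 2.0.13 for mapping to mm10; HTSeq 0.6.1 and Cufflinks are named without a role, and the annotation and strand setting are not given in the sources used here. Rows of 92 spike-ins were kept out of library sizes. The second MPP KO column is titled as library 3 and was taken as MPP KO replicate 2, the one library without a column of its own.

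Counts were fitted with edgeR 4.0.16 in R 4.3.3 (filterByExpr with a minimum count of 10 and total of 15, TMM, quasi-likelihood test, a mean per group), with the 6 libraries of a population for genotype comparisons (3 residual degrees of freedom) and all 12 for the others (6). Two-sided p-values received a Benjamini-Hochberg adjustment over 13170 genes in LSK, 12947 in MPP and 14033 in the model of both, with a threshold of 0.05. The script was tested on simulated data. CPM use TMM-scaled library sizes, and log2 CPM a prior count of 2. Alternatives were DESeq2 1.42.0, no filter, total-count and spike-in scaling, a replicate block, each library left out, and the spread of only the groups compared. The members and gene lists were chosen with earlier results of these data known. From each list, up to 4 called genes with the smallest p were named per comparison, with the 3 genes closest to each member, hosted snoRNAs, Rn45s, Lars2 and Tet2; Rcc1, Rian, Mirg and Dlk1 were added as neighbours. Listed genes without a row in the tables were not analysed here, and some genes are not reported here.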

Additional observations from a re-analysis of the deposited data

Results flagged for a closer look

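For 3 noncoding RNAs the difference between the genotype effects in LSK and MPP lay past the threshold in the model of all 12 libraries, where 0.727% of genes passed for KO and 2.53% for Mut. These RNAs were chosen on their levels in the same libraries, so passing it supports nothing and the values are descriptions. For Malat1 the KO effect in LSK minus that in MPP was -0.91 ± 0.09 (log2, SE), from -0.33 in LSK and 0.59 in MPP. The Mut effect of Malat1 differed by -1.36 ± 0.09, from -1.03 and 0.34. For Snhg1 the Mut effects differed by -1.41 ± 0.24, from -0.83 and 0.59. For Snhg8 they differed by -2.04 ± 0.37, from -1.50 and 0.56. Under spike-in scaling none of the 4 passed, and the median gene then differed by 0.51 for KO and 1.74 for Mut. Errors were larger under that scaling: 0.41 for both Malat1 values, 0.44 for Snhg1 and 0.56 for Snhg8. Rn45s and Lars2 differed in the same direction for Mut, by -1.69 ± 0.10 and -2.63 ± 0.08. For KO they differed by -0.36 ± 0.10 and -0.13 ± 0.08, neither past the threshold. The part of Rn45s and Lars2 in the values of the 3 RNAs was not tested.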

How the results depend on the processing

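Of 85 differences of the 8 RNAs, 54 kept their direction in every alternative run (12 to 17 each). Reversals of called values came from spike-in scaling: Malat1 in LSK Mut against WT (0.056), Snhg3 in LSK against MPP in WT (2.78) and KO (3.57), Neat1 there in KO (3.48), and the Mut effect in LSK minus that in MPP of Malat1 (0.31) and Snhg1 (0.28). Under that scaling the median gene shifted by 0.51, 1.10, -0.59, 0.05, -0.59 and 0.65 in the 6 genotype comparisons. Total-count scaling shifted it by up to 0.21 in LSK against MPP.

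The number of genes called is given for LSK KO against WT, LSK Mut against WT, LSK KO against Mut, and the same 3 comparisons in MPP, in that order. It was 6, 168, 8, 47, 29 and 31 in edgeR. DESeq2 called 593, 1398, 116, 272, 302 and 288, and edgeR without the filter 50, 475, 22, 189, 217 and 195. Spike-in scaling gave 71, 3002, 8, 15, 2297 and 3254. The spread of only the groups compared gave 3, 5, 36, 26, 17 and 21. Leaving out a library gave 0 to 1690, 5 to 2631, 2 to 65, 10 to 41, 15 to 28 and 10 to 34. For LSK against MPP in WT, KO and Mut and the KO and Mut effects between populations the counts were 3361, 2128, 1229, 102 and 355 in edgeR. DESeq2 gave 4560, 3163, 2249, 580 and 1093, no filter 3811, 2527, 1715, 278 and 662, and spike-in scaling 11550, 12011, 12570, 2 and 5428. Leaving out a library gave 2018 to 4198, 991 to 3325, 540 to 2296, 4 to 903 and 88 to 1425. Total-count scaling turned the split of LSK against MPP in WT from 1438 higher and 1923 lower to 1823 and 1596.

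Replicate numbers do not pair the libraries: over 15 pairs of groups the correlation of same-numbered deviations was -0.07 to 0.05. With the replicate block the counts were 5, 35, 5, 23, 19 and 26 for the genotype comparisons and 3125, 1882, 1092, 34 and 248 for the others, and Gas5 in LSK Mut and MPP KO against WT and Snhg3 in KO between populations were no longer called. Both Gas5 calls were also lost with the spread of only the groups compared, the MPP one under spike-in scaling, and that of Snhg3 without the filter and under total-count scaling. The counts limit Meg3, with 6 to 87 counts in LSK, and the snoRNA rows.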

Other observations

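The 13 genes that shared the order of Gas5 (WT below KO below Mut without overlap in LSK and in MPP, 0.114% of 12302 genes) were Ahsa1, Ap2a1, Cct5, Fgf3, H2-K1, Hist1h4c, Hmgb1, Ifitm3, Krt10, Nfu1, Serpina3g, Tex261 and Tgtp2. H2-K1 encodes a class I histocompatibility molecule and had the highest mean level, 1594 CPM. Ahsa1 and Cct5, which encode a cochaperone and a subunit of a cytosolic chaperonin, averaged 258 and 763 CPM.

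With TMM scaling, 16 genes stepped down in LSK and up in MPP like Snhg8 (0.138%). Among them were 2310035C23Rik, Adar, Ddx17, Eif2s2, Fosb, Foxo4, Matr3, Mir703, Noc3l, Rpl37a, Rps4x, Rtf1, Snord22, Tfrc and Zcchc11. Snord22 is encoded inside Snhg1, and Rpl37a and Rps4x encode ribosomal proteins, with mean levels of 50.3 and 460 CPM. These genes were singled out after their values were seen.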
